A study of Mus musculus with 96 samples.

Results

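The subunits of the 3 nuclear RNA polymerases were followed through 96 single mouse oocytes and embryos. The genes were chosen by name, as the protein-coding genes whose mouse symbol starts with Polr1, Polr2 or Polr3, which gave 28 of the 55401 genes in the count table: 5 Polr1, 13 Polr2 and 10 Polr3 genes. The rule uses no measured value, but the set was proposed with earlier results of these data known. All animals were C57BL/6J, and embryos were untreated. Females received PMSG and, 46 h later, hCG, and mated with males of the same strain. Collection began 12 h after hCG and was repeated every 2 h, cumulus cells were taken off with hyaluronidase in M2, and embryos were kept in KSOM. The 16 groups were 8 oocytes, 7 morulae at about 84 h and 81 embryos in between, timed from fertilization as the labels count it. There were 5 embryos in each of the groups at 0, 2, 8, 10, 12, 14 and 20 h, 8 in each of those at 16 and 36 h, and 2 (4 h), 3 (6 h), 9 (18 h), 10 (22 h) and 6 (24 h) in the others. The design follows the passage from the 1-cell to the 2-cell embryo and, per the series title, zygotic genome activation. Each library came from a single oocyte or embryo and was made with SMART-Seq v4, which primes on poly(A) tails, so a level here is one of polyadenylated RNA. The labels do not tie libraries to animals, and the p-values measure the spread between single oocytes or embryos.

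RNA polymerase I transcribes the large ribosomal RNA precursor, RNA polymerase II the messenger RNAs, and RNA polymerase III the transfer RNAs and other small RNAs. The enzymes share a design: a pair of large catalytic subunits, an assembly platform of smaller subunits, a stalk, and a set of small subunits common to all of them. The fully grown mouse oocyte is transcriptionally silent, and the embryo starts on stored maternal RNA before its own genome becomes active. Of the 28 genes, 3 encode subunits of polymerase I alone (Polr1a, Polr1b, Polr1e), 7 of polymerase II alone (Polr2a, Polr2b, Polr2c, Polr2d, Polr2g, Polr2i, Polr2j) and 10 of polymerase III alone (among them Polr3a, Polr3b, Polr3c, Polr3d, Polr3e, Polr3f, Polr3g, Polr3gl and Polr3k). Another 2 (Polr1c, Polr1d) encode the assembly pair shared by polymerases I and III, and 5 (Polr2e, Polr2f, Polr2h, Polr2k, Polr2l) encode subunits shared by all. Polr2m encodes a protein that binds polymerase II and is not a core subunit.

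Gene counts per library ranged from 10378 to 6795311, with a median of 2099222. Morula replicate 4 held the 10378 counts, and the next lowest library held 564538. The embryo labelled 10 h replicate 5 had summed oocyte markers of 27.2 CPM (counts of a gene per library, scaled to a common library size), against 19540 to 24310 CPM in the other 10 h embryos, and summed cumulus and granulosa markers of 7174 CPM, against 103.1 to 850 CPM. Its summed morula markers were 7238 CPM, against 219.3 to 461.4 CPM. The oocyte markers of morula replicate 4 went against its label too. Its summed oocyte markers were 2470 CPM, against 77.2 to 223.5 CPM in the other morulae. Its morula markers were at 0 CPM, against 161.6 to 451.7 CPM, and its cumulus and granulosa markers at 73.7 CPM, against 0 to 4.75 CPM. The morula list does not set morulae apart, since its median was 201.9 CPM in morulae and 226 CPM in oocytes. In morula replicate 4 a single count equals 36.9 CPM. The median Spearman correlation with the rest of the group was 0.404 for that morula and 0.142 for that 10 h embryo, against 0.782 to 0.956 in the other 94 libraries. Counts of subunit genes called in comparisons that include either library are given with and without it, and calls lost without it are named. Group means, ranges, ranks and class medians include both libraries unless stated. The embryos of 0 h to 36 h form 1 processing cohort, and the oocytes and the morulae each have a separate batch, so batch and stage cannot be told apart in comparisons with either. Summed cumulus and granulosa markers (13 genes) had a median of 569 CPM in oocytes (93.3 to 993). In embryos the median was 125.1 CPM at 0 h (32.1 to 609), 213 CPM at 12 h (122.5 to 1319), 51.8 CPM at 24 h (33.6 to 143) and 31.6 CPM at 36 h (20.7 to 1027), and in morulae it was 1.61 CPM (0 to 73.7). Of the 13 genes, 3 had no counts in oocytes, 1 to 3 had none in each of these embryo groups, and 8 had none in morulae. Amh was among them every time, and the other genes of the list were detected. The part of such cells in the differences was not tested. A CPM is a share of a library, so less RNA of a gene cannot be told apart from more RNA of other genes. The exons of 10 of the 28 genes overlap a gene on the opposite strand, and the library kit does not mark strand. Values of the overlapping gene are given with the calls described in detail.

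The medians of the classes chosen by symbol stood at unlike levels. The classes hold unlike subunits, and subunits of polymerases I and III with other symbols are left out, so the medians do not compare like subunits. The catalytic pairs did not keep the order of the medians. In oocytes they averaged 12.45 (Polr3a), 2.70 (Polr3b), 8.76 (Polr2b), 1.36 (Polr2a), 0.614 (Polr1a) and 0.344 (Polr1b) CPM per kb. Per kilobase of exon, the median over the 7 polymerase II genes averaged between 62.3 CPM per kb (14 h) and 102.7 CPM per kb (6 h) in the 16 groups, with 85.2 ± 27.5 in oocytes and 81.7 ± 24.6 in morulae (SD, n = 8 and n = 7). The median over the 10 polymerase III genes averaged 2.53 ± 0.286 CPM per kb in oocytes, 2.74 ± 0.424 at 24 h (n = 6), 3.45 ± 1.71 at 36 h (n = 8) and 3.09 ± 1.67 in morulae. The median over the 3 polymerase I genes averaged 0.496 ± 0.225 CPM per kb in oocytes, 0.252 ± 0.0207 at 12 h (n = 5), 0.474 ± 0.255 at 24 h, 2.13 ± 1.01 at 36 h and 3.45 ± 2.14 in morulae. The median over the 5 genes shared by all enzymes averaged 10.2 ± 1.54 CPM per kb in oocytes, 10.0 ± 4.09 at 24 h, 33.4 ± 14.2 at 36 h and 199 ± 80.3 in morulae. Over the 16 groups these averages of the median spanned 4.59 to 199 CPM per kb for the shared genes. For polymerase II they spanned 62.3 to 102.7 CPM per kb. A class median does not follow each of its genes: Polr2d averaged 940 CPM per kb at 0 h and 89.3 at 24 h.

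**Figure D1:**
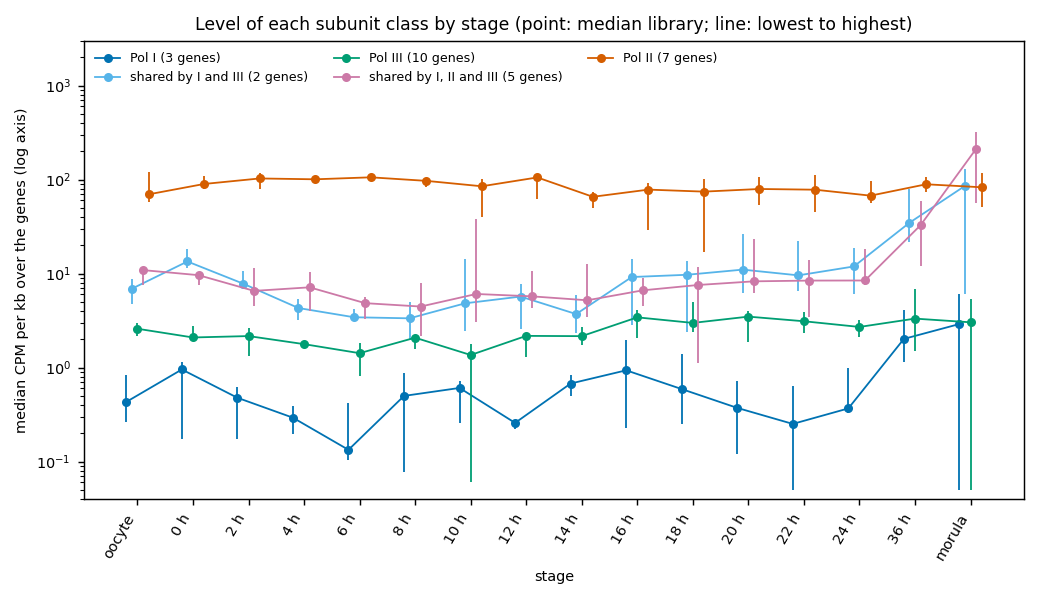
Level of each subunit class by stage. The y axis is the median CPM per kb over the genes of a class (log axis), a point is the median library, and a line runs from the lowest to the highest library, with libraries below 0.05 drawn there. Averaged over libraries, the class median of polymerase II lies between 62.3 and 102.7 CPM per kb in all groups. That of the genes shared by all enzymes averages 10.0 CPM per kb at 24 h, 33.4 at 36 h and 199 in morulae.

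Within polymerase II the small subunits gave the level. Per kb, Polr2d, Polr2j, Polr2c and Polr2g held the first 4 ranks of the 28 genes in oocytes, at 0 h and at 24 h. Polr2a, which encodes the catalytic subunit with the C-terminal repeat domain, was at rank 23 in each of these groups, with 1.36 CPM per kb in oocytes, 1.04 at 0 h and 1.65 at 24 h. In morulae Polr2j kept the first rank (440 CPM per kb), followed by the shared Polr2h (255) and Polr2f (254), and the ranks of these last 2 genes were closer than their spread. By group medians, 15 of the 28 genes had their highest level in morulae. The share of all genes that are highest there was not counted, so this number is not read as particular to the subunit genes. The others were spread over 7 groups: 3 genes each at 4 h and 24 h, 2 each at 16 h and 36 h, and 1 each in oocytes (Polr2c), at 0 h (Polr2j) and at 20 h. The 4 h group holds only 2 libraries.

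**Figure D2:**
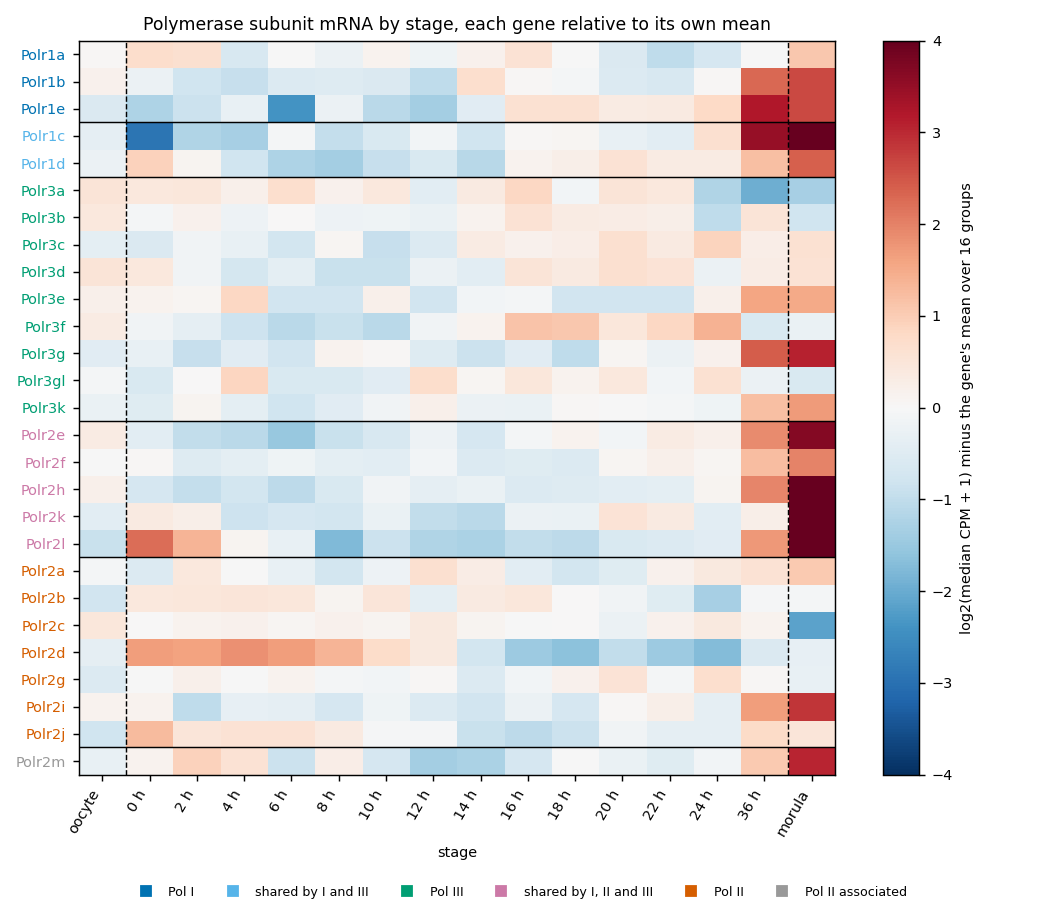
Level of 27 of the 28 genes in 16 groups. Rows are genes, ordered by enzyme class (label colour), columns are stages, and colour is log2(median CPM + 1) minus the mean of the gene over the groups, with the scale limited to 4 in either direction. Dashed lines set off the oocyte and morula batches. Polr2l and Polr2d are high at 0 h, Polr1c, Polr1e and Polr3g at 36 h, and the 5 genes shared by all enzymes in morulae.

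The sequence just upstream of the start site is shown for 5 genes on which the comparisons turn. Polr1c and Polr1e had the largest increases at 36 h, Polr2l the largest changes at 0 h and 12 h, Polr3f was lower at 36 h, and Polr2c was lower in morulae. Each run is 250 bases of GRCm38.p6 from RefSeq, read 5′ to 3′ on the strand of the gene. Capitals mark matches on either strand to 6 motifs: the TATA box (TATAAA), the CCAAT box (CCAAT), the GC box (GGGCGG), the E box (CACGTG), the ETS motif (CCGGAAG) and the YY1 motif (AAGATGG). The positions are chr17:46248046-46248295 (minus strand) for Polr1c, chr4:45018359-45018608 (plus strand) for Polr1e, chr7:141475154-141475403 (minus strand) for Polr2l, chr2:144527495-144527744 (plus strand) for Polr3f and chr8:94857200-94857449 (plus strand) for Polr2c.
Polr1c: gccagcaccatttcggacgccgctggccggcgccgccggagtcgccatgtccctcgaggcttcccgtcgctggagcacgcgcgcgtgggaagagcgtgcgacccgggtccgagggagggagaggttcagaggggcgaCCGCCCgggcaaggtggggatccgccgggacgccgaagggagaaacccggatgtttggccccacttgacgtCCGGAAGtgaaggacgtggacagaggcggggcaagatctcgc
Polr1e: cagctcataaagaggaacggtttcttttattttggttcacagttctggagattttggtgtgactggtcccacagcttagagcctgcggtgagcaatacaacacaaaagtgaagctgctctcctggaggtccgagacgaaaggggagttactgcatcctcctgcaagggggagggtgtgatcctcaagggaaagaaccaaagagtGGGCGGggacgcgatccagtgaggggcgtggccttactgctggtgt
Polr2l: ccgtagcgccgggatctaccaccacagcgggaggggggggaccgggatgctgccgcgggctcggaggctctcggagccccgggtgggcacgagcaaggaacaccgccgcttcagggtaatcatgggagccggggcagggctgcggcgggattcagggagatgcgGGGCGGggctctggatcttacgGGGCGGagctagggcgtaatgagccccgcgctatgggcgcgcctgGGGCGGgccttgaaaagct
Polr3f: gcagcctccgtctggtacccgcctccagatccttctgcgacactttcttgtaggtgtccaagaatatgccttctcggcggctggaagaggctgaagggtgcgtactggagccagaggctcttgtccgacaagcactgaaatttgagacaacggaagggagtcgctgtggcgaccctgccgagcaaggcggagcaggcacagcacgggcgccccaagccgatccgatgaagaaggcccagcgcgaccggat
Polr2c: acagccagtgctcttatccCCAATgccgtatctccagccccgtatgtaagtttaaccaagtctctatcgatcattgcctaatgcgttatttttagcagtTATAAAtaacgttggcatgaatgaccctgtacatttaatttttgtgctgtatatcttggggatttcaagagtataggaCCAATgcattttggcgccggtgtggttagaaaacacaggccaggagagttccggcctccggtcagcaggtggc
Polr1c held 1 GGGCGG and 1 CCGGAAG, Polr1e 1 GGGCGG, Polr2l 3 GGGCGG, Polr3f none of the 6 motifs, and Polr2c 1 TATAAA and 2 CCAAT. The tables used here gave an upstream sequence for 22 of the 28 genes. GGGCGG was found in 14 of the 22 (63.6%), against 32.7% of all 32851 upstream sequences of that length. CCGGAAG was found in 5 (22.7%), against 6.91%. TATAAA was found in 2 (9.1%), against 12.4%, and CCAAT in 6 (27.3%), against 33.8%. CACGTG was found in 2 (9.1%), against 6.02%, and AAGATGG in 0, against 4.49%. The sets differ: each subunit gene gave 1 sequence, while the 32851 were not limited to 1 per gene or to protein-coding genes. Each motif was counted on its own on both strands, so where 2 motifs overlap both count. The median GC content was 61.4% in the 22 and 52.4% in all. A match describes letters and not binding.

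Embryos at 0 h were first set against oocytes. Polr2l, Polr2d, Polr2j, Polr1d and Polr2b were higher at 0 h, and Polr2h, Polr3f and Polr2c were lower. Of the 28 genes, 22 passed the filter on low counts, and 5 were called higher and 3 lower (edgeR quasi-likelihood F test, Benjamini-Hochberg adjusted p under 0.05 over the 9556 genes tested). Of all genes tested 45.7% were called, 23.3% higher and 22.5% lower, and the share among the subunit genes was below that. Their median log2 change was 0.13, and that of all genes was -0.02. Polr1b, Polr1c, Polr1e, Polr2k, Polr3e and Polr3gl were too low to be tested.

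Polr2l encodes a small zinc-binding subunit common to all 3 enzymes and had the largest change. It had 56.2, 69.97, 74.9, 77.4 and 87.1 CPM in the 5 embryos at 0 h, against a lowest of 3.26, a median of 7.68 and a highest of 9.86 CPM in the 8 oocytes. Every embryo lay far above every oocyte, and the fitted log2 change was 3.38 ± 0.21 (SE; edgeR adjusted p 4.91e-12). Polr2d encodes the stalk subunit that pairs with the product of Polr2g, and had 655, 760, 887, 1208 and 1263 CPM at 0 h, against 185 to 261 CPM in oocytes (median 216). The groups did not overlap, with a log2 change of 2.15 ± 0.14 (edgeR adjusted p 2.37e-11). Its partner Polr2g averaged 137.3 ± 42.5 CPM at 0 h and 106.2 ± 34.3 CPM in oocytes (SD), and its change of 0.40 ± 0.21 was not called (edgeR adjusted p 0.124). Polr2j, whose product joins that of Polr2c in the polymerase II assembly platform, had 754, 764, 794, 843 and 875 CPM at 0 h, against 142 to 303 CPM in oocytes (median 191). These groups did not overlap either (log2 change 1.93 ± 0.14, edgeR adjusted p 6.64e-11). Lrwd1, which overlaps Polr2j on the opposite strand, changed by 1.86 in the same fit, and reads from shared exons of the pair cannot be told apart.

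Polr1d, of the assembly pair of polymerases I and III, had 69.2, 74.9, 78.5, 98.2 and 110 CPM at 0 h, against 19.6 to 42.7 CPM in oocytes (median 35.4). All 5 embryos lay above all oocytes (log2 change 1.41 ± 0.19, edgeR adjusted p 1.77e-06). Its partner Polr1c was listed at 0 in 3 of the 5 embryos at 0 h and had 4.71 and 5.22 CPM in the other two, against a median of 4.98 CPM in oocytes. Polr2b, one of the catalytic pair of polymerase II, had 62.6 to 110 CPM at 0 h, against 34.5 to 51.4 CPM in oocytes. It rose by 1.07 ± 0.16 without overlap (edgeR adjusted p 6.77e-06), and Igfbp7, which overlaps it on the opposite strand, changed by 0.21 (edgeR adjusted p 0.774). Polr2a, the other of the pair, averaged 7.32 ± 4.37 CPM at 0 h and 9.63 ± 3.13 CPM in oocytes (log2 change -0.33 ± 0.37, edgeR adjusted p 0.488). The log2 ratio of Polr2a to Polr2b within a library averaged -3.66 ± 1.28 at 0 h and -2.07 ± 0.48 in oocytes, a difference that did not pass the threshold (exact two-sided permutation test, p = 0.0124, adjusted 0.0622 over 20 ratio tests). Without 0 h replicate 3 its adjusted p was 0.0485.

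Among the genes that fell, Polr2h, another subunit common to all enzymes, had 3.60, 4.71, 11.3, 13.4 and 14.8 CPM at 0 h, against 17.5 to 27.2 CPM in oocytes (median 21.8). The groups did not overlap (log2 change -1.25 ± 0.29, edgeR adjusted p 0.00117). Clcn2, on the opposite strand of Polr2h, was too low for the test, with a mean of 2.175 CPM at 0 h and 4.57 CPM in oocytes. Polr2c had 472 to 573 CPM at 0 h, against 623 to 851 CPM in oocytes, and fell by 0.44 on the log2 scale (SE 0.10, edgeR adjusted p 0.000756), while its opposite-strand neighbour Dok4 changed by 0.05 (edgeR adjusted p 0.819). Polr3f, of the polymerase III initiation subcomplex, averaged 13.7 ± 6.69 CPM at 0 h and 24.8 ± 7.1 CPM in oocytes, with overlapping groups (-0.87 ± 0.28, edgeR adjusted p 0.014). In 1 fit of all 96 libraries the calls of Polr2c and Polr3f were lost (edgeR adjusted p 0.323 and 0.279). The subunits shared by all enzymes did not move together, since Polr2l was higher, Polr2h lower, and Polr2e (-0.58 ± 0.24, edgeR adjusted p 0.0514) and Polr2f (-0.05 ± 0.14, edgeR adjusted p 0.786) were not called. The catalytic pair of polymerase III was not called: Polr3a averaged 83.5 ± 30.1 CPM at 0 h and 72.6 ± 17.0 CPM in oocytes, and Polr3b averaged 13.1 ± 4.36 CPM at 0 h and 14.2 ± 4.75 CPM in oocytes.

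Within the cohort, embryos at 12 h were set against those at 0 h. Polr2l, Polr1d, Polr2j, Polr2d, Polr3a and Polr2b were lower at 12 h. Of 21 genes tested, 6 were called lower and 0 higher (edgeR, 8211 genes tested, background 39.0%, 19.4% lower and 19.7% higher), and 7 genes had an unadjusted p under 0.05. DESeq2 called 6 lower and 0 higher (background 26.7%). The share called in either direction was below the background, but the share called lower was above it and the share called higher below it. The median log2 change of the genes tested was -0.39, and that of all genes was -0.02. The comparison shares its 0 h embryos with the one before, so the directions of the 2 comparisons are not independent.

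Polr2l had 4.899, 4.96, 5.99, 6.12 and 7.53 CPM at 12 h, against 56.2 to 87.1 CPM at 0 h. The groups lay far apart (log2 change -3.64 ± 0.28, edgeR adjusted p 6.15e-08). Over the first hours its mean was 73.1 CPM (0 h), 39.6 CPM (2 h), 16.2 CPM (4 h), 11.8 CPM (6 h) and 5.94 CPM (8 h), and it stayed between 5.899 and 7.35 CPM from 10 h to 18 h. Polr2d fell later. It had 276, 339, 369, 456 and 526 CPM at 12 h, against 655 to 1263 CPM at 0 h, with no overlap (-1.27 ± 0.22, edgeR adjusted p 0.000243). Its mean was 955 CPM (0 h), 984 CPM (4 h) and 727 CPM (8 h), then 191 CPM (14 h), 98.5 CPM (18 h) and 90.6 CPM (24 h). The mean of the 10 h group was 416 CPM, or 496 CPM without replicate 5. Whether the courses of Polr2l and Polr2d differ was not tested.

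Polr1d had 12.5, 17.2, 26.5, 30.9 and 42.3 CPM at 12 h, against 69.2 to 110 CPM at 0 h, without overlap (-1.72 ± 0.31, edgeR adjusted p 0.000295). Its mean was lowest at 6 h, at 15.0 CPM. Polr2j had 129.3, 176, 322, 324 and 467 CPM at 12 h, against 754 to 875 CPM at 0 h, also without overlap (-1.49 ± 0.27, edgeR adjusted p 0.000375), and Lrwd1 changed by -1.42. Of the catalytic subunits, Polr3a had 28.2, 31.6, 40.9, 45.2 and 61.2 CPM at 12 h, against 55.2, 58.8, 74.9, 103.4 and 125.3 CPM at 0 h. Only the highest 12 h embryo reached into the 0 h range (-1.01 ± 0.27, edgeR adjusted p 0.00708), and the call was lost in 1 fit of all 96 libraries (edgeR adjusted p 0.164). The highest group median of Polr3a came later, with 99.3 CPM at 16 h. Polr2b had 19.4, 29.2, 50.6, 57.9 and 58.6 CPM at 12 h, against 62.6 to 110 CPM at 0 h (-0.96 ± 0.28, edgeR adjusted p 0.0123), with means of 75.3 to 105.2 CPM from 2 h to 10 h, and Igfbp7 changed by 0.08. Polr1a averaged 7.54 ± 5.04 CPM at 12 h and 13.02 ± 7.67 CPM at 0 h, Polr2a 12.9 ± 5.59 CPM at 12 h and 7.32 ± 4.37 CPM at 0 h, and Polr3b 9.75 ± 2.6 CPM at 12 h and 13.1 ± 4.36 CPM at 0 h, and none of these was called.

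**Figure D3:**
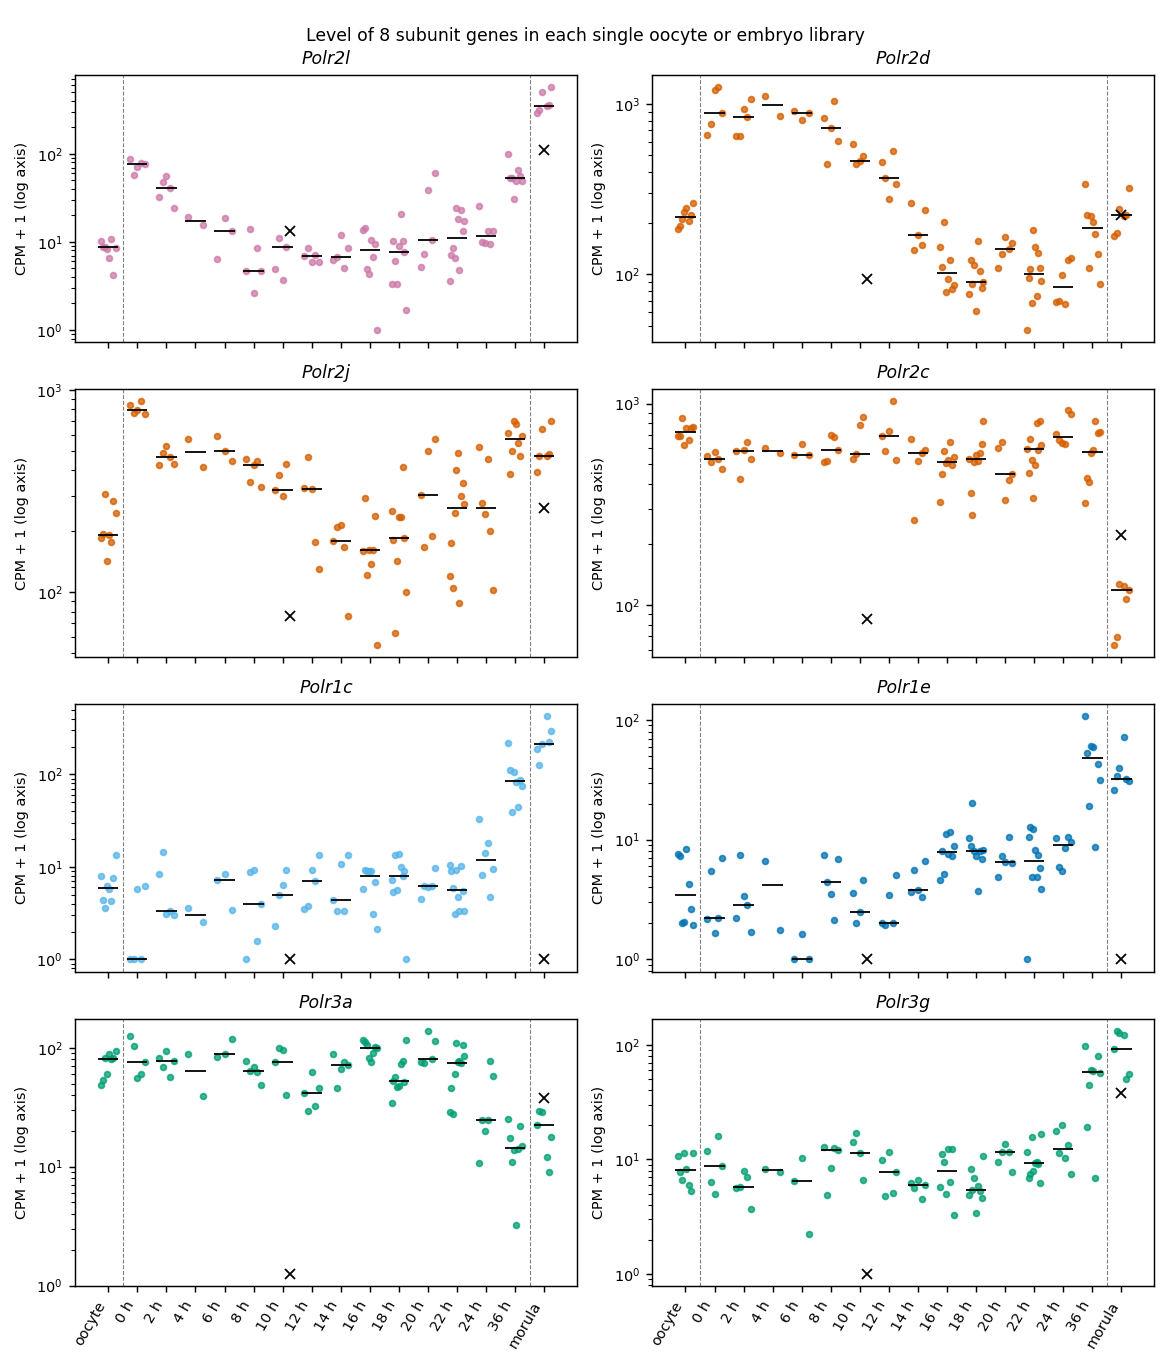
Level of 8 subunit genes in every library. The y axis is CPM + 1 (log axis), the x axis is the stage, a point is a library, a bar is the group median, and a cross marks morula replicate 4 or 10 h replicate 5. Dashed lines set off the oocyte and morula batches. Polr2l falls within hours of 0 h and is highest in morulae, Polr2d stays high up to 8 h, Polr2c is lowest in morulae, and Polr1c, Polr1e and Polr3g are high at 36 h and in morulae.

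At 24 h against 12 h, Polr1e, Polr3f and Polr1d were called higher and Polr2d lower. Of 24 genes tested, 3 were called higher at 24 h and 1 lower (edgeR, 11083 genes tested, background 21.6%, 13.4% higher and 8.23% lower), with a median log2 change of 0.21, against 0.05 for all genes. The share called was below the background. This count of 4 depended on the libraries used, and the background moved with it. The count was 8 (6 higher and 2 lower, background 35.8%) without the libraries whose titles end in b. It was 7 without 24 h replicate 5 (background 31.1%) and 2 without 12 h replicate 1 (background 14.0%). Polr1e, which encodes a polymerase I subunit that helps initiation and elongation, had 4.46 to 9.45 CPM at 24 h (median 8.01), against 0.941, 0.998, 1.02, 2.45 and 4.08 CPM at 12 h. Every 24 h embryo lay above every 12 h embryo (log2 change 1.82 ± 0.50, edgeR adjusted p 0.0188), and without 12 h replicate 1 the adjusted p was 0.057. Polr1e was too low for the test in the earlier adjacent comparisons, so it entered this one through its level at 24 h. Polr3f had 17.0 to 67.4 CPM at 24 h (median 48.9), against 10.6, 10.98, 16.3, 17.9 and 24.2 CPM at 12 h. The groups overlapped slightly (1.504 ± 0.37, edgeR adjusted p 0.0111), and its mean was already 41.4 CPM at 16 h.

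Polr1d had 31.9 to 71.2 CPM at 24 h (median 52.2), against 12.5 to 42.3 CPM at 12 h, and its change of 1.02 ± 0.35 was close to the threshold (edgeR adjusted p 0.0467). That call was lost without any 1 of 12 h replicates 1, 3, 4 and 5 or 24 h replicates 1, 2, 3 and 4 (adjusted p 0.0642 to 0.115). Polr2d was the gene called lower, with 65.7 to 123.3 CPM at 24 h (median 83.2), against 276 to 526 CPM at 12 h and no overlap (-2.10 ± 0.25, edgeR adjusted p 0.00038). Its stalk partner Polr2g averaged 185 ± 81.6 CPM at 24 h and 121.5 ± 32.5 CPM at 12 h and was not called (0.63 ± 0.33, edgeR adjusted p 0.188). None of the catalytic subunits was called. Polr1a averaged 3.66 ± 1.61 CPM at 24 h and 7.54 ± 5.04 CPM at 12 h, Polr2a 11.6 ± 5.92 CPM at 24 h and 12.9 ± 5.59 CPM at 12 h, and Polr2b 26.8 ± 12.2 CPM at 24 h and 43.1 ± 17.8 CPM at 12 h. Polr3a averaged 34.9 ± 25.9 CPM at 24 h and 41.4 ± 13 CPM at 12 h, and Polr3b 6.59 ± 3.44 CPM at 24 h and 9.75 ± 2.6 CPM at 12 h. Polr3g averaged 12.3 ± 4.64 CPM at 24 h and 6.83 ± 3 CPM at 12 h (0.87, edgeR adjusted p 0.13). Per kb, Polr2d stood at 89.3 CPM at 24 h and Polr2g at 149, whereas at 0 h they stood at 940 and 110.

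The cohort also allowed a test of each 2 h step from 0 h to 24 h, in 1 fit of its 81 libraries with 27 of the 28 genes tested. Polr1d was called higher at 16 h than at 14 h, with 15.7 to 75.03 CPM at 16 h (median 45.3), against 10.9 to 23.0 CPM at 14 h (log2 change 1.36 ± 0.37, edgeR adjusted p 0.0383, background 1.47%). With library size alone that call was lost (1.53 ± 0.44, edgeR adjusted p 0.0551). Polr2b was called lower at 24 h than at 22 h, with 11.4 to 43.2 CPM at 24 h (median 26.0), against 27.1 to 92.1 CPM at 22 h (-0.93 ± 0.28, edgeR adjusted p 0.0336, background 5.21%), and Igfbp7 changed by -0.15. Without the libraries whose titles end in b the Polr2b call was lost (-0.76 ± 0.42, edgeR adjusted p 0.523) and Polr2j was called higher instead (1.49 ± 0.41, edgeR adjusted p 0.0488). In the other 10 steps 0 of the subunit genes were called by edgeR, the one tool run on them, and between 1 and 9 had an unadjusted p under 0.05. The background was 0.00539% in the step to 2 h, 3.05% in that to 10 h, 5.25% in that to 12 h and 0% in the remaining 7. Both steps that touch 10 h include the embryo whose markers go against its label. With library size alone, 5 genes were called higher in the step to 10 h (Polr3c, Polr3d, Polr2e, Polr1d and Polr2h, background 9.42%) and 3 lower in that to 12 h (Polr2m, Polr3c and Polr2b, background 12.5%). Without that embryo and with the original scaling, 0 subunit genes were called in either of these steps. In that fit Polr3a was also called lower at 24 h than at 22 h (-0.95 ± 0.30, edgeR adjusted p 0.0341, background 8.36%). The calls of Polr1d (background 4.98%) and Polr2b were kept. All 12 steps share 1 fit, so leaving out that embryo moved the background of steps that do not touch 10 h too.

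Between 24 h and 36 h the subunit genes had the most calls of the adjacent comparisons. Of 25 genes tested, 16 were called higher at 36 h and 2 lower (edgeR, 12636 genes tested, background 52.3%, 29.1% higher and 23.2% lower). With library size alone as the scaling 18 were higher and 0 lower (background 50.7%). The share called was above the background, on the higher side. The median log2 change of the genes tested was 1.27, and that of all genes was 0.05. By class, the genes called higher were 2 of 3 of polymerase I, both of the pair shared by polymerases I and III, the 4 tested of the 5 shared by all, 4 of 7 of polymerase II, and Polr2m. Of the 8 polymerase III genes tested, 3 were higher and 2 lower. Summed two-cell markers (7 genes) stood at 518 to 1768 CPM at 36 h and at 30.7 to 1669 CPM at 24 h (median 163), and their part in the differences was not tested.

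The largest increases were in Polr1c and Polr1e. Polr1c had 38.6 to 220 CPM at 36 h (median 83.9), against 3.78 to 32.0 CPM at 24 h (median 10.8). Every 36 h embryo lay above every 24 h embryo (log2 change 2.84 ± 0.47, edgeR adjusted p 0.000141). Polr1d, its partner, had 79.1 to 195 CPM at 36 h (median 97.3), against 31.9 to 71.2 CPM at 24 h, again without overlap (1.17 ± 0.25, edgeR adjusted p 0.00109). Polr1e had 7.68 to 106.8 CPM at 36 h (median 46.9), against 4.46 to 9.45 CPM at 24 h (median 8.01), and the lowest 36 h embryo lay within the 24 h range (2.73 ± 0.46, edgeR adjusted p 0.000153). Polr1b, which encodes one of the catalytic pair of polymerase I, had 6.61 to 23.7 CPM at 36 h (median 11.7), against 0 to 5.72 CPM at 24 h (median 1.69), without overlap (2.60 ± 0.67, edgeR adjusted p 0.00375). It was too low for the test in the earlier adjacent comparisons, so it entered this one through its level at 36 h. Polr1a, the other of the pair, had 3.38 to 12.4 CPM at 36 h (median 7.02), against 0.58 to 5.15 CPM at 24 h (median 4.07), and was not called (1.02 ± 0.48, edgeR adjusted p 0.0814). The log2 ratio of Polr1a to Polr1b averaged -0.77 ± 0.71 at 36 h and 1.13 ± 1.91 at 24 h (exact two-sided permutation test, p = 0.0273, adjusted 0.109).

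Of the subunits shared by all enzymes, Polr2h had 18.3 to 303 CPM at 36 h (median 75.5), against 9.78 to 29.3 CPM at 24 h (median 20.5), with some overlap (log2 change 2.26 ± 0.51, edgeR adjusted p 0.0014), and Clcn2, too low for the test, averaged 3.17 CPM at 36 h and 2.61 CPM at 24 h. Polr2l had 29.7 to 97.7 CPM at 36 h (median 51.9), against 8.50 to 24.6 CPM at 24 h (median 10.7), and the groups were apart (2.22 ± 0.33, edgeR adjusted p 5.23e-05). Polr2f rose by 1.27 ± 0.20 and Polr2e by 1.37 ± 0.34. In polymerase II, Polr2i rose by 1.91 ± 0.35, Polr2b by 1.37 ± 0.36, Polr2d by 1.10 ± 0.28 and Polr2j by 0.99 ± 0.29, while Polr2a (0.41 ± 0.41, edgeR adjusted p 0.411), Polr2c (-0.28 ± 0.23, edgeR adjusted p 0.317) and Polr2g (-0.35 ± 0.26, edgeR adjusted p 0.283) were not called. Tbcb, which overlaps Polr2i on the opposite strand, changed by 2.71, Lrwd1, beside Polr2j, by 1.10, Igfbp7, beside Polr2b, by -1.53, and 1700088E04Rik, beside Polr2f, by 2.24, to a mean of 5.03 CPM at 36 h, against 1.01 CPM at 24 h. Polr2m rose by 1.32 ± 0.48 (edgeR adjusted p 0.0289), and lost the call without any 1 of 24 h replicates 1, 2, 5 and 6 or 36 h replicates 2 and 7 (adjusted p 0.0543 to 0.0862) and without the libraries whose titles end in b (1.16, adjusted p 0.107).

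Polymerase III genes went both ways at 36 h. Polr3g, which encodes the form of an initiation subunit known from pluripotent cells, had 5.91 to 97.2 CPM at 36 h (median 56.9), against 6.52 to 18.8 CPM at 24 h (median 11.3). One 36 h embryo lay below all of the 24 h embryos (log2 change 2.14 ± 0.46, edgeR adjusted p 0.0011). Polr3k, a small subunit with a role in RNA cleavage, had 151 to 331 CPM at 36 h, against 53.5 to 117.4 CPM at 24 h, without overlap (1.55 ± 0.24, edgeR adjusted p 8.22e-05). Polr3b, one of the catalytic pair, had 3.54 to 41.0 CPM at 36 h (median 16.8), against 3.31 to 11.4 CPM at 24 h (median 5.17), with overlap (1.61 ± 0.54, edgeR adjusted p 0.0182). Gm17249, on the opposite strand of Polr3b, averaged 3.00 CPM at 36 h and 0.191 CPM at 24 h and was too low for the test.

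Polr3a, the other catalytic subunit, was lower, with 2.23 to 24.2 CPM at 36 h (median 13.5), against 9.72 to 76.04 CPM at 24 h (median 23.7). The groups overlapped, and the change of -1.20 ± 0.47 was close to the threshold (edgeR adjusted p 0.0402). That call was lost with library size alone (adjusted p 0.13), in DESeq2 (adjusted p 0.0539), without the libraries whose titles end in b (log2 change -0.35, adjusted p 0.545), and without any 1 of 24 h replicates 5 and 6 or 36 h replicates 3, 4, 5, 6 and 8 (adjusted p 0.0537 to 0.149). Polr3f had 4.84 to 49.4 CPM at 36 h (median 11.3), against 17.0 to 67.4 CPM at 24 h (median 48.9), with overlap (-1.39 ± 0.46, edgeR adjusted p 0.0182), and was not called with library size alone (adjusted p 0.0898). The log2 ratio of Polr3a to Polr3b averaged -0.18 ± 1.42 at 36 h and 2.13 ± 1.33 at 24 h (exact two-sided permutation test, p = 0.00866, adjusted 0.0622), which did not pass the threshold.

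**Figure D4:**
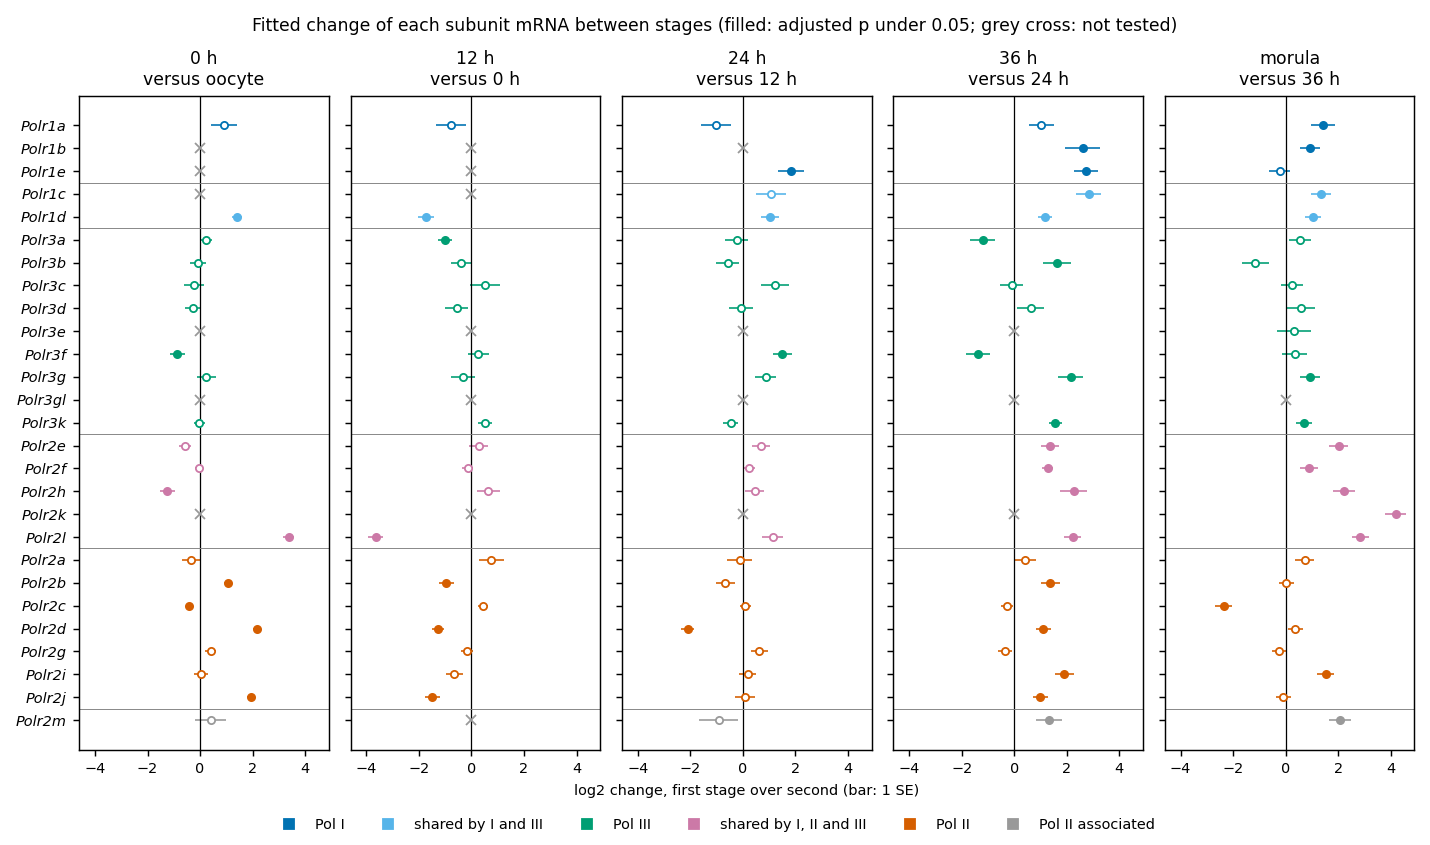
Fitted log2 change of 27 of the 28 subunit genes in 5 comparisons. Each panel names the later stage first, points are edgeR estimates with 1 SE, filled points have an adjusted p under 0.05, crosses are genes too low to test, and colours are enzyme classes. At 36 h against 24 h 16 genes are called higher and 2 lower, and in morulae against 36 h embryos all 5 genes shared by the enzymes are called higher and Polr2c lower.

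In morulae against 36 h embryos, the 3 largest increases were in subunits shared by all enzymes (Polr2k, Polr2l and Polr2h), and Polr2c fell. Of 27 genes tested, 13 were called higher in morulae and 1 lower (edgeR, 11216 genes tested, background 71.7%, 28.2% higher and 43.5% lower). Without morula replicate 4 the counts were 14 and 1 (background 72.8%), and DESeq2, with its own size factors, called 9 higher and 3 lower (background 57.2%). The share called in either direction was below the background, but the share called higher was above it and the share called lower below it. The median log2 change of the genes tested was 0.71, and that of all genes was -0.55. All 5 shared genes, both of the pair shared by polymerases I and III, 2 of 3 of polymerase I, 2 of 9 tested of polymerase III, 1 of 7 of polymerase II and Polr2m were higher.

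Polr2k, a zinc-binding subunit common to all enzymes, was near 0 in earlier stages and was tested in no other adjacent comparison, so it entered the test through its level in morulae. It had 0 to 126.2 CPM in the 7 morulae (median 63.5), against 1.77 to 8.39 CPM in the 8 embryos at 36 h (median 3.21). The 0 is morula replicate 4, and the other 6 morulae, from 56.5 CPM up, lay far above the 36 h embryos (log2 change 4.19 ± 0.40, edgeR adjusted p 3.08e-09). Polr2l had 110.6 to 579 CPM in morulae (median 350), against 29.7 to 97.7 CPM at 36 h (median 51.9), without overlap (2.83 ± 0.32, edgeR adjusted p 4.25e-08). Polr2h had 184 to 479 CPM in morulae (median 421), against 18.3 to 303 CPM at 36 h (median 75.5), and without replicate 4 the lowest morula had 329 CPM (2.22 ± 0.42, edgeR adjusted p 4.38e-05). Clcn2, which overlaps Polr2h on the opposite strand, changed by 3.76, to a mean of 40.9 CPM in morulae, against 3.17 CPM at 36 h. Polr2e had 36.9 to 455 CPM in morulae (median 304), against 24.8 to 122.1 CPM at 36 h (2.02 ± 0.36, edgeR adjusted p 1.98e-05). Without replicate 4 its lowest morula had 236 CPM. Polr2f rose by 0.90 ± 0.34 (edgeR adjusted p 0.0217), a call lost without 36 h replicate 2 or morula replicate 7 (adjusted p 0.0532 to 0.0682) and in DESeq2 (adjusted p 0.0785), and 1700088E04Rik averaged 1.39 CPM in morulae and 5.03 CPM at 36 h.

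Polr2m had 0 to 71.9 CPM in morulae (median 41.4), against 4.14 to 25.03 CPM at 36 h (median 9.55), and all morulae but replicate 4 lay above the 36 h embryos (2.06 ± 0.41, edgeR adjusted p 9.06e-05). Polr1c had 0 to 426 CPM in morulae (median 211), against 38.6 to 220 CPM at 36 h (1.35 ± 0.39, edgeR adjusted p 0.0031), and Polr1d had 36.9 to 294 CPM (median 222), against 79.1 to 195 CPM at 36 h (1.04 ± 0.30, edgeR adjusted p 0.00333). The groups overlapped for both genes. Polr1a had 0 to 34.5 CPM in morulae (median 16.2), against 3.38 to 12.4 CPM at 36 h (1.42 ± 0.44, edgeR adjusted p 0.00608), and its opposite-strand neighbour Gm26628 was at 0 in both groups. Polr2i rose by 1.52 ± 0.32 (edgeR adjusted p 0.000186), and its opposite-strand neighbour Tbcb changed by 0.81.

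The calls of Polr1b (0.93 ± 0.38, edgeR adjusted p 0.0332), Polr3g (0.93 ± 0.40, edgeR adjusted p 0.0401) and Polr3k (0.71 ± 0.31, edgeR adjusted p 0.0436) were close to the threshold, and all of them were lost in DESeq2 (adjusted p 0.165, 0.202 and 0.133) and with library size alone (adjusted p 0.123, 0.129 and 0.0586). Each was also lost without single libraries: Polr1b without 36 h replicate 2, 7 or 8 or morula replicate 3 or 5 (adjusted p 0.061 to 0.0803), Polr3g without 36 h replicate 2, 3 or 5 or morula replicate 2, 3 or 5 (adjusted p 0.0535 to 0.0964), and Polr3k without 36 h replicate 2, 3, 5, 6, 7 or 8 or morula replicate 1, 3 or 7 (adjusted p 0.0502 to 0.0895).

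Polr2c, of the polymerase II assembly platform, was the gene called lower. It had 62.7 to 221 CPM in morulae (median 118.3), against 320 to 815 CPM at 36 h (median 576). Every morula lay below every 36 h embryo, and the highest morula was replicate 4 (log2 change -2.36 ± 0.32, edgeR adjusted p 5.71e-07). In the 15 earlier groups its mean stayed between 487 and 742 CPM. Dok4, which overlaps it on the opposite strand, changed by -2.89 and averaged 4.26 ± 2.07 CPM in morulae and 39.0 ± 17.3 CPM at 36 h. Its platform partner Polr2j averaged 487 ± 148 CPM in morulae and 559 ± 106.6 CPM at 36 h, and was not called (-0.10 ± 0.29, edgeR adjusted p 0.775). Among the catalytic subunits, Polr2a had 13.5 to 44.6 CPM in morulae (median 20.0), against 5.75 to 19.8 CPM at 36 h (0.73 ± 0.36, edgeR adjusted p 0.0771), Polr2b changed by 0.03 ± 0.30 (edgeR adjusted p 0.94), Polr3a by 0.54 ± 0.42 (edgeR adjusted p 0.256) and Polr3b by -1.15 ± 0.52 (edgeR adjusted p 0.0513), and none was called.

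Polr3g and Polr3gl encode alternative forms of the same polymerase III subunit, and Polr3gl is the form known from most somatic cells. Polr3gl held 208 counts in all 96 libraries and was too low for the fit in each comparison. In morulae it had 0 counts in 7 libraries, which allows a group level of up to 0.193 CPM (3 counts over the group), against 1561 counts of Polr3g. Per kb and pooled over the group, Polr3g was at least 211-fold higher than Polr3gl in morulae. The pooled ratio per kb was 42.3 at 36 h (1146 counts against 11), 3.58 at 24 h (344 against 39), 1.48 at 12 h (62 against 17) and 5.53 in oocytes, with 8 counts of Polr3gl. The log2 ratio within a library, with 0.5 CPM added to each gene, averaged 7.30 ± 0.74 in morulae and 5.52 ± 1.57 at 36 h, a difference of 1.79 (exact two-sided permutation test, p = 0.00964, adjusted 0.0622). It averaged 3.17 ± 1.16 at 24 h, and the difference of 36 h from 24 h was 2.35 (exact two-sided permutation test, p = 0.012, adjusted 0.0622). Of the 20 ratio tests, over 4 pairs of genes and 5 comparisons, 0 passed the adjusted threshold and 7 had an unadjusted p under 0.05, and without 0 h replicate 3 the number past the threshold was 5.

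Over longer spans, 36 h embryos were set against 0 h embryos and morulae against oocytes, with samples shared with the comparisons above. At 36 h against 0 h, 13 of 25 genes tested were higher and 2 lower (edgeR, background 64.7%, 39.5% higher and 25.1% lower), with a median log2 change of 1.06, against 0.38 for all genes. Polr1c had the largest fitted change (5.80 ± 0.69, edgeR adjusted p 7.93e-07), but it was at 0 in 3 of the 5 embryos at 0 h and entered the test through its level at 36 h, so the size of its change is uncertain. The genes that fell were Polr3a (-2.35 ± 0.37, edgeR adjusted p 2.4e-05) and Polr2d (-2.18 ± 0.27, edgeR adjusted p 1.14e-06). Polr3a had 2.23 to 24.2 CPM at 36 h, against 55.2 to 125.3 CPM at 0 h, and the groups were apart. In morulae against oocytes, 19 of 24 genes tested were higher and 2 lower (edgeR, background 86.3%, 37.0% higher and 49.3% lower), with a median of 2.29, against -0.63 for all genes. Polr2l (6.32 ± 0.32), Polr1c (5.97 ± 0.39), Polr2h (4.73 ± 0.24), Polr3g (4.22 ± 0.29) and Polr2e (4.18 ± 0.30) changed most, and Polr2c (-2.20 ± 0.23) and Polr3a (-1.33 ± 0.27) were lower. Clcn2, beside Polr2h, changed by 3.84, and Dok4, beside Polr2c, by -2.47. Without morula replicate 4 the counts were the same, but Polr2d and Polr2g were no longer called (log2 change 0.27 and 0.30, edgeR adjusted p 0.137 and 0.214).

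Several subunits of polymerases I and III carry other symbols and were read beside these genes. Znrd1, the zinc-ribbon subunit of polymerase I with a role in RNA cleavage, averaged 165 ± 85.7 CPM in morulae and 27.5 ± 23.4 CPM at 36 h (log2 change 2.83 ± 0.50, edgeR adjusted p 1.9e-05), and it averaged 8.54 ± 2.88 CPM at 24 h (36 h against 24 h, 1.74 ± 0.57, edgeR adjusted p 0.0166). Crcp, of the polymerase III stalk, averaged 12.6 ± 7.46 CPM (24 h), 47.5 ± 13.4 CPM (36 h) and 82.7 ± 47.8 CPM (morulae), and was called higher in both steps (edgeR adjusted p 0.000625 and 0.00677). Twistnb, of the polymerase I stalk, changed by 0.23 ± 0.27 at 36 h against 24 h (edgeR adjusted p 0.492) and rose by 1.18 ± 0.31 in morulae (edgeR adjusted p 0.00156), and Cd3eap was called in none of the adjacent comparisons.

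The factors that work with the polymerases were counted in the same fits. At 36 h against 24 h, 3 of 6 tested initiation factors of polymerase I were higher and 2 lower (median log2 change 1.24), led by Ubtf (3.55 ± 0.73) and, lower, Taf1a (-1.60 ± 0.47). Of 15 tested initiation factors of polymerase III, 8 were higher and 3 lower (median 1.04), led by Gtf3c4 (3.72 ± 0.77) and, lower, Brf2 (-2.66 ± 0.51). Ubtf averaged 1.42 CPM at 24 h and 14.3 CPM at 36 h, and Gtf3c4 1.69 CPM and 23.3 CPM. Both entered the test through their level at 36 h, so the size of their change is uncertain. Of 32 tested general factors of polymerase II, 4 were higher and 7 lower (median -0.37), led by Gtf2h5 (2.25 ± 0.36) and, lower, Gtf2h2 (-1.97 ± 0.53). Elongation factors and enzymes of the C-terminal domain of polymerase II had 13 of 30 higher and 8 lower (median 0.67). Assembly and import factors had 3 of 10 higher and 1 lower (median -0.01), led by Gpn3 (3.68 ± 0.69), and the mitochondrial polymerase and its factors had 1 of 3 higher, Tfam (1.90 ± 0.60). The median of all genes was 0.05, and of all genes 29.1% were called higher and 23.2% lower.

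In morulae against 36 h embryos the same lists had 2 of 6 higher and 1 lower (polymerase I initiation, median 0.11), 2 of 14 higher and 2 lower (polymerase III initiation, median -0.32), 9 of 32 higher and 9 lower (polymerase II general factors, median 0.07), 5 of 30 higher and 10 lower (elongation and C-terminal domain, median -0.19), 4 of 10 higher and 4 lower (assembly and import, median -0.67) and 1 of 3 higher and 1 lower (mitochondrial, median 0.62), and the median of all genes was -0.55, with 28.2% called higher and 43.5% lower. Tbpl2, the oocyte form of the TATA-binding protein, was the general factor with the largest fall, at 0.0509 ± 0.135 CPM in morulae and 15.0 ± 15.3 CPM at 36 h. In earlier comparisons the largest list, the polymerase II general factors, had 9 of 30 higher and 9 lower at 0 h against oocytes, where 23.3% of all genes were called higher and 22.5% lower. It had 8 of 30 higher and 2 lower at 12 h against 0 h (19.7% and 19.4% of all genes), and 0 of 31 higher and 5 lower at 24 h against 12 h (13.4% and 8.23%, by edgeR). Its median log2 change was 0.03, 0.08 and -0.32 in these comparisons, against -0.02, -0.02 and 0.05 for all genes. Leo1, of the Paf1 complex and the elongation list, had 13 ± 5.3 CPM in oocytes, 84.3 ± 6.05 CPM at 0 h and 14.3 ± 6.79 CPM at 12 h (log2 change 2.67 ± 0.20 at 0 h against oocytes and -2.48 ± 0.29 at 12 h against 0 h).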

How the data were processed

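Single oocytes and embryos were grouped by the stage and time in the labels. The authors deposited 1 table of estimated counts, with 55401 genes and 873 repeat families by 96 libraries. Per the submitters' processing notes, the tools were Trimmomatic 0.39, STAR and featureCounts on mm10, and the counting options are not given in the sources used here. Of the gene values above 0, 28.4% were not whole, so all were rounded. Repeat rows, 1.2% to 26.0% of a library, were left out of library sizes and tests. GENCODE M21 matched 55141 IDs, and 260 were unmatched. No 2 libraries were identical. The values of 1 of the 28 genes enter the counts and class medians but are not reported here.

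The members and lists were chosen with earlier results of these data known. CPM were computed from gene rows with TMM factors, and levels between genes were compared per kb of merged exon. Each pair of stages was fitted on its own with the edgeR 4.0.16 quasi-likelihood F test (limma 3.58.1, R 4.3.3; filterByExpr, TMM, robust), with Benjamini-Hochberg adjustment over all genes tested and a threshold of 0.05. The 12 steps shared 1 fit of 81 libraries. Ratios used log2(CPM + 0.5) and exact permutation tests (scipy 1.17.1) with adjustment over 20 tests. DESeq2 1.42.0, library size alone, no filter, 1 fit of all libraries, a block on the title number, leaving out titles ending in b and leaving out each library were the alternatives. The fits were tested on simulated counts. Text names the catalytic pairs, Polr3g, Polr3gl and, per adjacent comparison, the 4 genes called with the largest change in each direction, and 1 per direction of each list; other subunit genes were named after their values were seen. A floor of 3 counts covers counting error only. Upstream sequences are from RefSeq.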

Additional observations from a re-analysis of the deposited data

Results flagged for a closer look

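In 51 of 376 sets of values (1 of 27 genes in a group of 4 to 10 libraries) the highest or lowest library stood apart by Dixon's criterion (13.6%), where chance gives about 1 in 20. Morula replicate 4 accounts for 12 of them, 10 h replicate 5 for 7 and 18 h replicate 9 for 4.

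Morula replicate 4, the library with the fewest counts, was listed at 0 CPM for Polr1a, Polr1b, Polr1c, Polr1e, Polr2k, Polr2m, Polr3c and Polr3f, and stood low for Polr1d (36.9 CPM), Polr2e (36.9 CPM), Polr2h (184 CPM) and Polr2l (110.6 CPM). The 10 h replicate 5, whose markers go against its label, had 84.2 CPM of Polr2c, 92.6 CPM of Polr2d, 117.4 CPM of Polr2e, 75 CPM of Polr2j, 0.25 CPM of Polr3a, 49.9 CPM of Polr3d and 0 CPM of Polr3g.

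At 18 h, replicate 9 had 0 CPM of Polr1c, 14.5 CPM of Polr1d, 2.76 CPM of Polr2e and 21.1 CPM of Polr2g, and replicate 3 had 0 CPM of Polr1a, 0 CPM of Polr2a and 195.5 CPM of Polr3k. At 16 h, replicate 8 had 2.25 CPM of Polr2e and 0 CPM of Polr2l. At 14 h, replicate 2 had 49.3 CPM of Polr2b and 263.9 CPM of Polr2c, replicate 5 had 75.6 CPM of Polr2j and replicate 3 had 11.8 CPM of Polr2m. At 22 h, replicate 1 had 0 CPM of Polr1e and 0.258 CPM of Polr3b, and replicate 6 had 2.26 CPM of Polr3e.

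Single values stood apart in other groups. In oocytes, these were Polr2e in replicate 8 (13.3 CPM), Polr3b in replicate 2 (3.39 CPM) and Polr3k in replicate 4 (41.8 CPM). At 0 h they were Polr1a in replicate 4 (1.80 CPM) and Polr3gl in replicate 3 (0.673 CPM), and at 2 h Polr2e in replicate 2 (30.3 CPM) and Polr2m in replicate 4 (0.465 CPM). At 8 h Polr3c in replicate 5 had 2.22 CPM, at 10 h Polr2b in replicate 4 had 22.9 CPM, and at 12 h Polr3e in replicate 4 had 4.08 CPM. At 20 h Polr3b in replicate 4 had 3.155 CPM and Polr3e in replicate 1 had 1.06 CPM. At 24 h Polr1a in replicate 4 had 0.58 CPM and Polr2l in replicate 1 had 24.6 CPM. At 36 h Polr2a in replicate 2 had 5.75 CPM and Polr3a in replicate 5 had 2.23 CPM.

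Outside the subunit genes, the pseudogene Polr2k-ps had counts in some libraries, with at most 5 in 1 library.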

How the results depend on the processing

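Of 86 calls of a subunit gene over 7 comparisons, 69 were kept under every alternative run and 17 were lost under at least 1, and 0 changed direction. Calls were lost under DESeq2 (7), library size alone (7), no filter (11), 1 fit of all 96 libraries (10), the replicate block (9) and without titles ending in b (2). At 24 h against 12 h, 4 genes were called (background 21.6%), 2 with no filter (6.86%) and 8 without titles ending in b (35.8%). Leaving out each library in turn gave 2 to 7 there, with 2 without 12 h replicate 1 (background 14.0%) and 7 without 24 h replicate 5 (31.1%). Over the 2 h steps 2 were called. This became 9 when libraries were scaled by their totals (background 9.42%, 12.5% and 5.86% in the steps to 10 h, 12 h and 24 h). It became 3 when 10 h replicate 5 was left out (4.98% and 8.36% in the steps to 16 h and 24 h). Of the 20 ratio tests 0 passed, and 0 to 5 when each library was left out (5 without 0 h replicate 3). The other counts without each library ran from 8 to 10 (0 h against oocytes), 6 to 7 (12 h against 0 h), 16 to 18 (36 h against 24 h), 10 to 16 (morulae against 36 h), 13 to 16 (36 h against 0 h) and 21 to 22 (morulae against oocytes). Without 0 h replicate 1 the change of Polr1b at 36 h against 0 h was 3.82, against 2.45 with it (edgeR adjusted p 0.000408 without it). In that comparison Polr1d lost its call without any 1 of 0 h replicates 1, 2, 3 and 5 or 36 h replicates 1 and 2 (adjusted p 0.0588 to 0.119), and Polr2a without 0 h replicate 1, 2 or 5 (0.0643 to 0.0732). Library size alone moved the median of all genes by over 0.1, to -0.29 at 12 h against 0 h, 0.25 at 24 h against 12 h, 0.295 at 36 h against 24 h, -0.78 in morulae against 36 h and -0.95 in morulae against oocytes, and the changes are read relative to those medians. Same-numbered titles correlated between -0.209 and 0.279 in their deviations, so the number is not taken as a pairing. With the replicate block, 9, 6, 4, 15, 11, 14 and 19 genes were called in the 7 comparisons, in the order of the report. The backgrounds were 39%, 36.9%, 17.9%, 46.5%, 66.9%, 63.1% and 82%. Morula replicate 4 and low genes such as Polr3gl limit what depth can show.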
